A study of Homo sapiens with 3 samples.

Results

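The genes described are 9 p53 target genes (CDKN1A, MDM2, GADD45A, FAS, TP53INP1, ZMAT3, BTG2, RRM2B and TP73). They were measured in HCT-116, a line of human colorectal cancer cells. The list was chosen with earlier results of these data known, so counts set beside all tested genes are descriptions and not tests. Members were taken as the genes of this list that at least 1 probe set names alone, and 8 of the 9 were found among 19775 genes named in this way. BTG2 was not analysed here, nor was the gene of p53 itself. The 3 arrays held SCD1-WT cells treated with DMSO for 24 h, SCD1-WT cells treated for 24 h with T-3764518, an inhibitor of the desaturase SCD1 (100 nM by the methods), and SCD1-KO cells, in which SCD1 was knocked out with CRISPR-Cas9. For SCD1-KO cells the vehicle (DMSO) and the time come from the study's text and not from the labels, and the clone that was hybridised is not stated. With a single array per condition nothing was replicated or tested, and a change in the cells cannot be told apart from a difference between cultures or arrays. Nor can a change in the share of cells that express a gene be told apart from a change in RNA per cell.

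p53 is a transcription factor that is held at a low level by the ubiquitin ligase MDM2 and accumulates after DNA damage and several other stresses. It switches on genes that stop the cell cycle (CDKN1A, which encodes p21, and GADD45A), genes of cell death (FAS, a death receptor), genes that supply or repair DNA (RRM2B, a subunit of ribonucleotide reductase), and genes that feed back on p53 itself, first among them MDM2. HCT-116 cells carry wild-type p53, and many of these genes also respond to other stress regulators, so their mRNA is not a readout of p53 alone.

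Each value is a MAS5 signal, a background-subtracted brightness of a probe set on a linear scale, with arrays scaled to a common trimmed mean (500.1 on each). A probe set was kept if its log2 signal, averaged over the arrays, reached the median of the whole array (56.6 as a signal), and the log2 ratios of a gene's kept probe sets were summarised by their median. This left 12321 genes, among them all 8 named members with 22 of their 29 probe sets. A gene is called higher or lower at 2-fold. Errors given are the SD of the log2 ratio between probe sets of 1 gene at a similar signal, which for the T-3764518 and the SCD1-KO ratio is 0.26 and 0.25 among the brightest of 5 equal classes of signal, and 0.58 and 0.60 in the dimmest; this SD covers neither cultures nor arrays. Over all tested genes the median log2 ratio to DMSO was -0.087 for T-3764518 and -0.011 for SCD1-KO, and scaling the arrays to 1 median would move these to 0.19 and 0.13. Under that scaling the ratios of FAS, ZMAT3 and RRM2B with T-3764518, near 0 as deposited, were 0.13, 0.043 and 0.26. Signals are listed in the order DMSO, T-3764518, SCD1-KO.

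In SCD1-KO cells 5 of the 8 measured p53 targets were at least 1.5-fold above SCD1-WT cells with DMSO, whereas T-3764518 left 2 of them at that level. CDKN1A and GADD45A were higher in both states. MDM2, FAS and TP53INP1 were higher in SCD1-KO cells and stood between 0.743-fold and 1.28-fold of the DMSO level with T-3764518. ZMAT3 and RRM2B had gene values within 1.18-fold of the DMSO level in both states, and TP73, measured by a dim probe set, was lower with T-3764518. At 2-fold, 2 members were higher and none was lower in SCD1-KO cells, where 3.12% of all tested genes were called higher and 3.93% lower. With T-3764518, 1 member was higher and 1 lower, beside 2.18% and 3.3% of all tested genes. At 1.5-fold the 5 members higher in SCD1-KO cells compare with 9.95% of all tested genes, and the 2 with T-3764518 with 6.62%. At 1.5-fold no member was lower in SCD1-KO cells, beside 11.4% of all tested genes, and TP73 was the 1 member lower with T-3764518, beside 12.3%. CDKN1A and GADD45A, the 2 members past 1.5-fold in both ratios, compare with 3.24% of all tested genes, and both ratios share the DMSO array. The median log2 ratio of the 8 genes was 0.84 in SCD1-KO cells and -0.083 with T-3764518, and scaling to 1 median made these 0.98 and 0.20, beside the all-gene medians of 0.13 and 0.19 under that scaling.

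**Figure D1:**
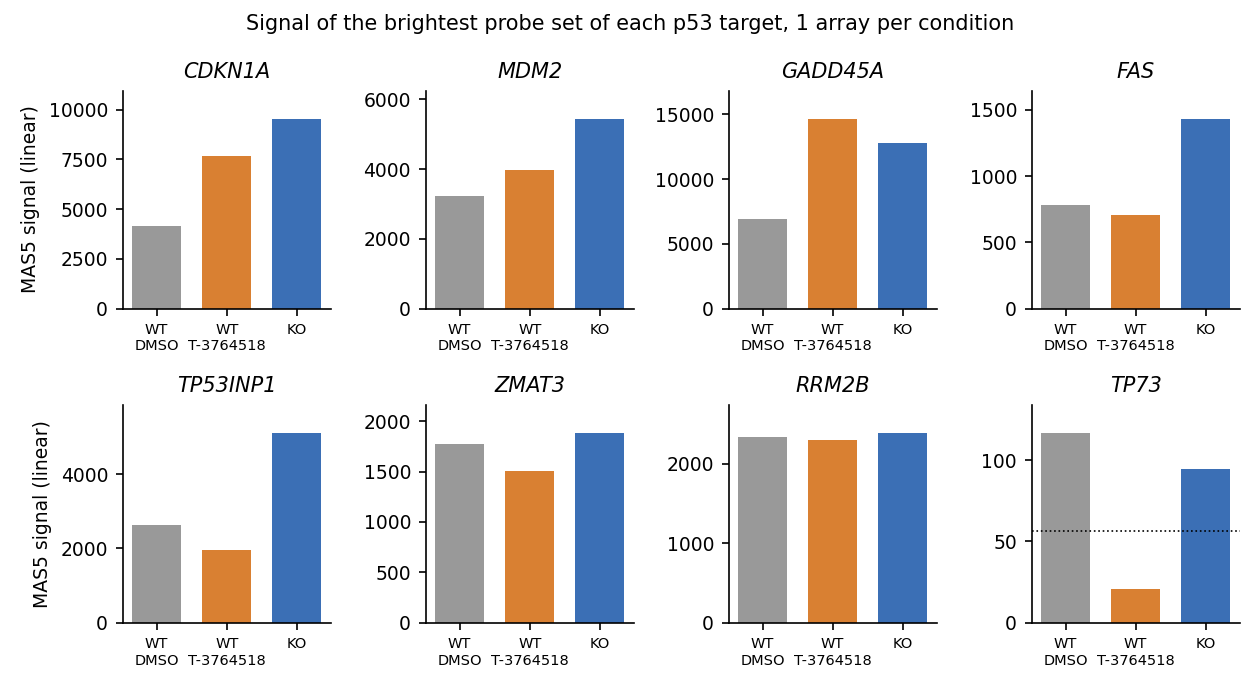
MAS5 signal (linear axis from 0) of the brightest kept probe set of each measured p53 target on the 3 arrays: SCD1-WT cells with DMSO (grey), SCD1-WT cells with T-3764518 (orange) and SCD1-KO cells (blue). Bars are single arrays without error, the dotted line for TP73 marks the filter level of 56.6, and levels should be compared within a panel only. MDM2, FAS and TP53INP1 stand highest in SCD1-KO cells, as do CDKN1A and, by little, ZMAT3 and RRM2B. CDKN1A and GADD45A are raised over DMSO on both other arrays.

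Genes of cell cycle arrest were the members that were higher in both states. CDKN1A encodes p21, an inhibitor of cyclin-dependent kinases. Its single probe set is of the _s_at kind, whose probes may be shared between transcripts. The signals were 4163, 7660 and 9532, lowest with DMSO. This was 1.84-fold above DMSO with T-3764518 (log2 ratio 0.88, probe-set SD 0.26) and 2.29-fold above it in SCD1-KO cells (1.19, SD 0.25), so that 2.91% and 2.06% of all tested genes had a ratio as high. Both differences were larger than the SD between probe sets, and the log2 ratio of SCD1-KO cells to T-3764518, 0.32, was close to it (0.26). GADD45A encodes a small stress protein that binds p21 and PCNA. Its signals were 6895, 14648 and 12757. GADD45A was 2.12-fold higher with T-3764518 (log2 ratio 1.09) and 1.85-fold higher in SCD1-KO cells (0.89). It was the only member with a lower signal in SCD1-KO cells than with T-3764518, by a log2 ratio of -0.20 that lay within the SD of 0.26. The genes named for the closest pattern to CDKN1A, by distance in the 2 log2 ratios to DMSO, were LRRC49 (distance 0.049), KMT2E-AS1 (0.072) and PIP5KL1 (0.074), and 49 genes lay within 0.25 of it.

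The p53 response element is made of 2 copies of a 10-base half-site, and matches to it were sought on both strands in the 250 bases before each transcription start that RefSeq places in GRCh38.p14. Of 35116 such windows, 0.561% held both half-sites side by side with at most 2 mismatches in the 20 bases. Among the members, 14 windows of CDKN1A, MDM2, FAS, ZMAT3, BTG2 and TP73 are counted. Windows of TP53INP1 and RRM2B are not reported here, and GADD45A had none. Of the 14, 4 windows of 3 genes held such a match: those of downstream starts of MDM2 (2 overlapping windows), FAS and TP73. The sequences shown are those 3 windows and that of CDKN1A, the member with the largest ratio in SCD1-KO cells, each 5′ to 3′ on the plus strand and ending at the base before the start, with the match in capitals.
CDKN1A, chr6:36678464-36678713: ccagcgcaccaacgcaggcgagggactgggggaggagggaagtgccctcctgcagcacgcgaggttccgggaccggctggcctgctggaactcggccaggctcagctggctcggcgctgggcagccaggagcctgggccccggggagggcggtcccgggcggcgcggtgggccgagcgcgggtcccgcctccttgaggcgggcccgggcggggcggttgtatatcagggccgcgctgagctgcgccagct
MDM2, chr12:68808767-68809016: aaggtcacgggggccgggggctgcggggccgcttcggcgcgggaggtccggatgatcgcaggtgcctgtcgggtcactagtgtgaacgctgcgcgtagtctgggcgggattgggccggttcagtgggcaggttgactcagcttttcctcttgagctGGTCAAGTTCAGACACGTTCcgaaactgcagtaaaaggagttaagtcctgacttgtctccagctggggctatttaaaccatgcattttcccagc
FAS, chr10:88991181-88991430: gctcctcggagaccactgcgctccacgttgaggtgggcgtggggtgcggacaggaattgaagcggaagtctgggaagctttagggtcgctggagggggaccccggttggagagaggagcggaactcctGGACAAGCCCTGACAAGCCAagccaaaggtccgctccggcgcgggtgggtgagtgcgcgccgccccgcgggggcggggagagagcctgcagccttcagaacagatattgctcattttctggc
TP73, chr1:3690422-3690671: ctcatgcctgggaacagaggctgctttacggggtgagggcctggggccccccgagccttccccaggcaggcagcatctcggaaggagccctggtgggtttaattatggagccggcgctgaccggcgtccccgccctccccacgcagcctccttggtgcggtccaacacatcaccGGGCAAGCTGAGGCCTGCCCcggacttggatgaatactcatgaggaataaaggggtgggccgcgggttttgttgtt
The window of CDKN1A had no match closer than 5 mismatches, a distance that 64.5% of all windows reach or better, which says only that these letters are not in this window. In MDM2 the match began 94 bases before the start, in FAS 122 bases and in TP73 76 bases. A match is a likeness of letters, and binding of p53 was not measured.

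MDM2, the ubiquitin ligase that marks p53 for degradation and is itself a p53 target, was higher in SCD1-KO cells on every kept probe set. Its brightest probe set had signals of 3236, 3960 and 5435. The log2 ratios of the 7 kept probe sets ran from 0.57 to 1.46 in SCD1-KO cells, with a median of 1.04 (2.05-fold; probe-set SD 0.42). With T-3764518 they ran from -0.64 to 0.89, 6 above and 1 below 0, with a median of 0.36 (1.28-fold), which was smaller than the SD of 0.42. All 7 probe sets were higher in SCD1-KO cells than with T-3764518, by a median log2 ratio of 0.59 (SD 0.43), a comparison that leaves out the DMSO array. The call at 2-fold rested on the probe sets used, since the brightest one alone gave 0.75 for SCD1-KO cells, and leaving out _s_at and _x_at probe sets, whose probes may be shared between transcripts, turned the T-3764518 ratio to -0.20. The 3 probe sets of MDM2 under the filter had signals of 3.65 to 84.7 and were given no weight. Transcripts from the upstream and downstream starts of MDM2 were not told apart. The genes nearest to MDM2 in the 2 ratios were NINJ1, an adhesion protein (distance 0.023), CPLX1 (0.029) and TRAF4 (0.046), and 113 genes lay within 0.25.

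FAS, the cell surface receptor for the death ligand FASLG, was higher in SCD1-KO cells and near its DMSO level with T-3764518. The brightest of its 5 probe sets had signals of 779, 704 and 1432, so the SCD1-KO array stood alone. All 5 probe sets had SCD1-KO ratios above 0, from 0.64 to 0.94 on the log2 scale, with a median of 0.80 (1.74-fold; SD 0.34) that 5.45% of all tested genes reached. With T-3764518 the ratios ran from -0.41 to 0.53, 2 above and 3 below 0, with a median of -0.15, and the highest came from a probe set with a DMSO signal of 48.8. SCD1-KO cells were 1.88-fold above T-3764518 (log2 ratio 0.91), and the 5 probe sets had the same sign. With _s_at and _x_at probe sets left out, the dim probe set alone remained, with log2 ratios of 0.53 for T-3764518 to DMSO and 0.12 for SCD1-KO to T-3764518. Of 5 tested genes that pass the death receptor signal on or restrain it, no gene was called in either state (1 with T-3764518 after scaling to 1 median). CASP10, an initiator caspase, was farthest from 0 in both, with log2 ratios of 0.87 and 0.70 at signals of 81.0, 148.1 and 131.5, followed by BID, a BH3-only protein, with T-3764518 (-0.27) and CFLAR, an inhibitor of caspase activation at the receptor, in SCD1-KO cells (0.42).

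**Figure D2:**
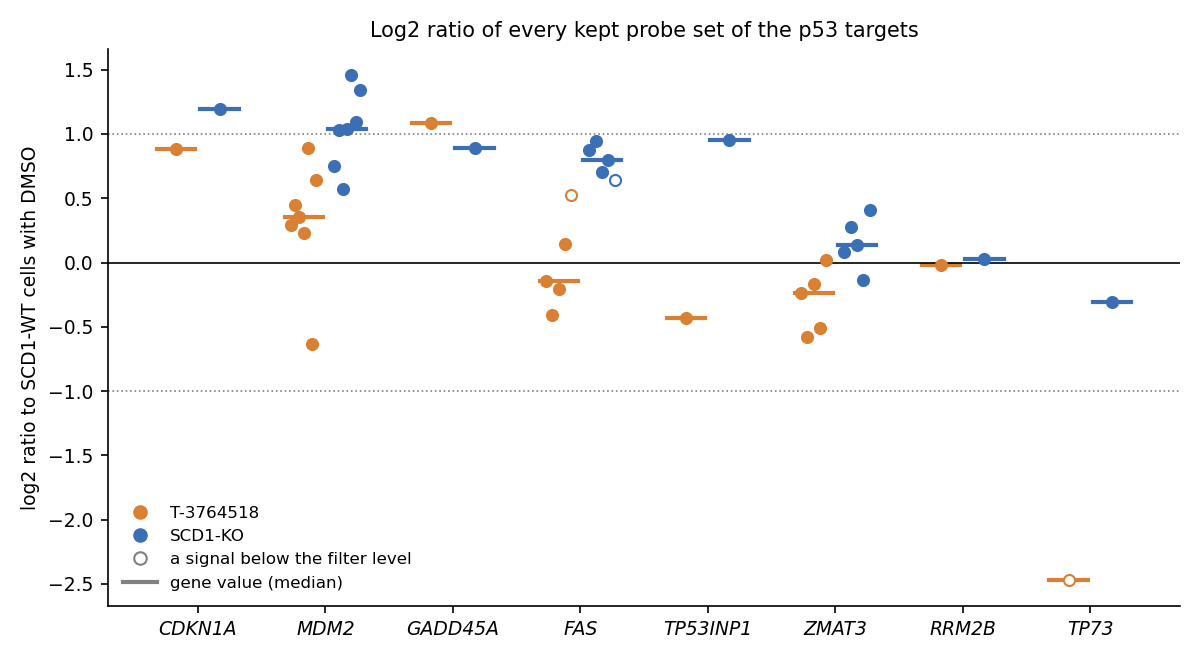
Log2 ratio to SCD1-WT cells with DMSO (vertical axis) for the 22 kept probe sets of the 8 measured p53 targets, with T-3764518 in orange and SCD1-KO cells in blue; open points have a signal below 56.6 in the ratio, short lines are gene medians, and dotted lines mark 2-fold. Of the 22 probe sets, 20 lie above 0 in SCD1-KO cells, beside 49.2% of all kept probe sets. With T-3764518, 11 lie above 0, beside 42.8%. The 7 of MDM2 and 5 of FAS all lie above 0 in SCD1-KO cells. Probe sets of the same gene are not separate observations, and MDM2, FAS and ZMAT3 hold 7, 5 and 5 of the 22.

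TP53INP1, a nuclear protein that promotes the p53 response and also acts in autophagy, had the largest ratio of SCD1-KO cells to T-3764518 among the 7 members other than TP73, whose T-3764518 signal was under the filter level. Its kept probe set had signals of 2639, 1960 and 5102. It was 1.93-fold higher in SCD1-KO cells (log2 ratio 0.95, SD 0.25), while the ratio with T-3764518 was 0.743-fold (-0.43, SD 0.26). SCD1-KO cells were therefore 2.60-fold above T-3764518 (log2 ratio 1.38, SD 0.26), and 1.78% of all tested genes had a ratio as high. On the signals as deposited 2 members, TP53INP1 and TP73, passed 2-fold over their T-3764518 level in SCD1-KO cells and none was 2-fold below it, beside 4.52% and 3.1% of all tested genes. With signals raised to the filter level the count was 1, TP53INP1, since TP73 was then only bounded at 1.67-fold. At 1.5-fold they were 4 with FAS and MDM2, which stood at the threshold, beside 14.2% of all tested genes, and none was 1.5-fold lower, beside 9.08%. The other 2 probe sets of TP53INP1 were under the filter, with signals of 6.56 to 95.9.

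ZMAT3, a zinc finger protein that binds RNA, and RRM2B, the p53-inducible subunit of ribonucleotide reductase, were the members nearest to their DMSO level. The brightest of the 5 probe sets of ZMAT3 had signals of 1776, 1508 and 1880. Its median log2 ratios to DMSO were -0.24 (T-3764518) and 0.14 (SCD1-KO), both smaller than the SD of 0.29 and 0.30. With T-3764518 its probe sets ran from -0.58 to 0.022, 4 below and 1 above 0, and in SCD1-KO cells from -0.14 to 0.41. All 5 probe sets were higher in SCD1-KO cells than with T-3764518 (median 0.37, SD 0.31). RRM2B had signals of 2342, 2308 and 2388 and log2 ratios of -0.021 and 0.028. TP73 encodes p73, a relative of p53, and was read by 1 kept probe set with signals of 116.5, 21 and 94.3. Raising the T-3764518 signal to the filter level bounds the difference, and TP73 under T-3764518 was at least 2.06-fold lower than with DMSO. In SCD1-KO cells its level was at least 1.67-fold that with T-3764518. Its SCD1-KO ratio to DMSO was -0.30 (SD 0.60). The other 2 probe sets of TP73 were dimmer, at 3.20 to 43.9, and did not lie on 1 side of 0 with T-3764518 (log2 ratios 0.22 and -0.55). Without the filter the gene value of TP73 with T-3764518 was -0.55, so the bounds hold for the kept probe set only.

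**Figure D3:**
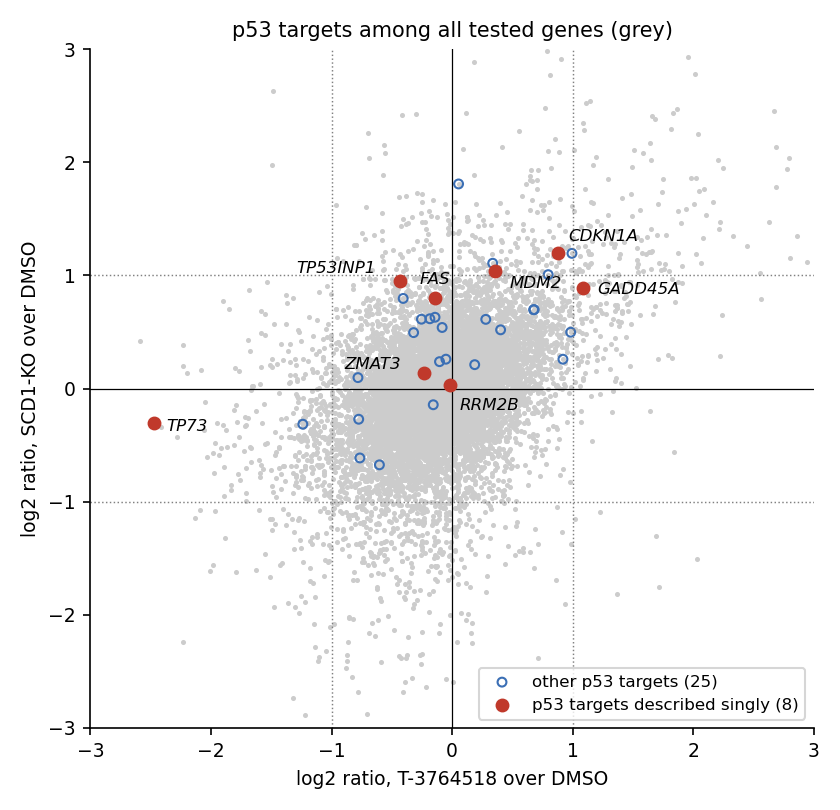
Log2 ratio of SCD1-KO cells to DMSO (vertical) against that of T-3764518 to DMSO (horizontal) for tested genes (grey; 30 lie outside the axes), the 8 measured p53 targets (red) and 25 other p53 targets (blue circles). Both ratios share the DMSO array, which by itself tilts the cloud along the diagonal; CDKN1A and GADD45A lie to the upper right, and MDM2, FAS and TP53INP1 lie above the centre.

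Other p53 targets, from a list of 30 of which 25 were tested, were described in the same way. This list too was chosen with earlier results of these data known. In SCD1-KO cells 4 were called higher and none lower, beside 3.12% and 3.93% of all tested genes. With T-3764518 none was called higher and 1 lower, beside 2.18% and 3.3%. At 1.5-fold, 11 were higher and 2 lower in SCD1-KO cells, beside 9.95% and 11.4%. With T-3764518, 6 were higher and 5 lower at 1.5-fold, beside 6.62% and 12.3%. After scaling to 1 median, 4 were called higher and none lower with T-3764518. That scaling moved the all-gene median with T-3764518 from -0.087 to 0.19. The list's median log2 ratio was 0.52 in SCD1-KO cells and -0.082 with T-3764518 (0.66 and 0.20 after that scaling), and 20 of the 25 genes were above 0 in SCD1-KO cells, where 48.9% of all tested genes were. PLK2, a polo-like kinase, had signals of 2299, 2386 and 8055, and its log2 ratios to DMSO were 0.054 (T-3764518) and 1.81 (SCD1-KO). TIGAR, a phosphatase that slows glycolysis, went from 1153 to 1456 and 2485 (log2 ratios 0.34 and 1.11). SESN2, a sestrin that restrains mTOR, and PMAIP1, which encodes the BH3-only protein NOXA, were called in SCD1-KO cells at 1.20 and 1.01 and stood at 0.99 and 0.80 with T-3764518. The gene called lower with T-3764518 was CD82, a tetraspanin, at -1.24, with -0.32 in SCD1-KO cells.

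The other targets did not move alike. Some genes had an SCD1-KO ratio larger than the probe-set SD and a T-3764518 ratio within it: PHLDA3, an inhibitor of AKT (log2 ratios 0.63 and -0.14), XPC, a damage sensor of nucleotide excision repair (0.62 and -0.18), TP53I3, a quinone oxidoreductase (0.61 and -0.25), and ACER2, a ceramidase (0.80 and -0.41). The SD was 0.42 for PHLDA3 and ACER2, and 0.29 with T-3764518 and 0.30 in SCD1-KO for XPC and TP53I3. ACER2 and PLK2 were also 2-fold higher in SCD1-KO cells than with T-3764518 (log2 ratios 1.20 and 1.76), and none of the 25 was 2-fold lower. TNFRSF10B, the TRAIL receptor DR5, and GDF15, a secreted stress factor, were higher with T-3764518 (0.98 and 0.92) than in SCD1-KO cells (0.50 and 0.26). APAF1, the scaffold of the apoptosome, and PERP, a junction protein, were below 0 in both states (-0.76 and -0.61 for APAF1, -0.60 and -0.67 for PERP). These examples, apart from ACER2 and PLK2, were chosen after their values were seen.

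**Figure D4:**
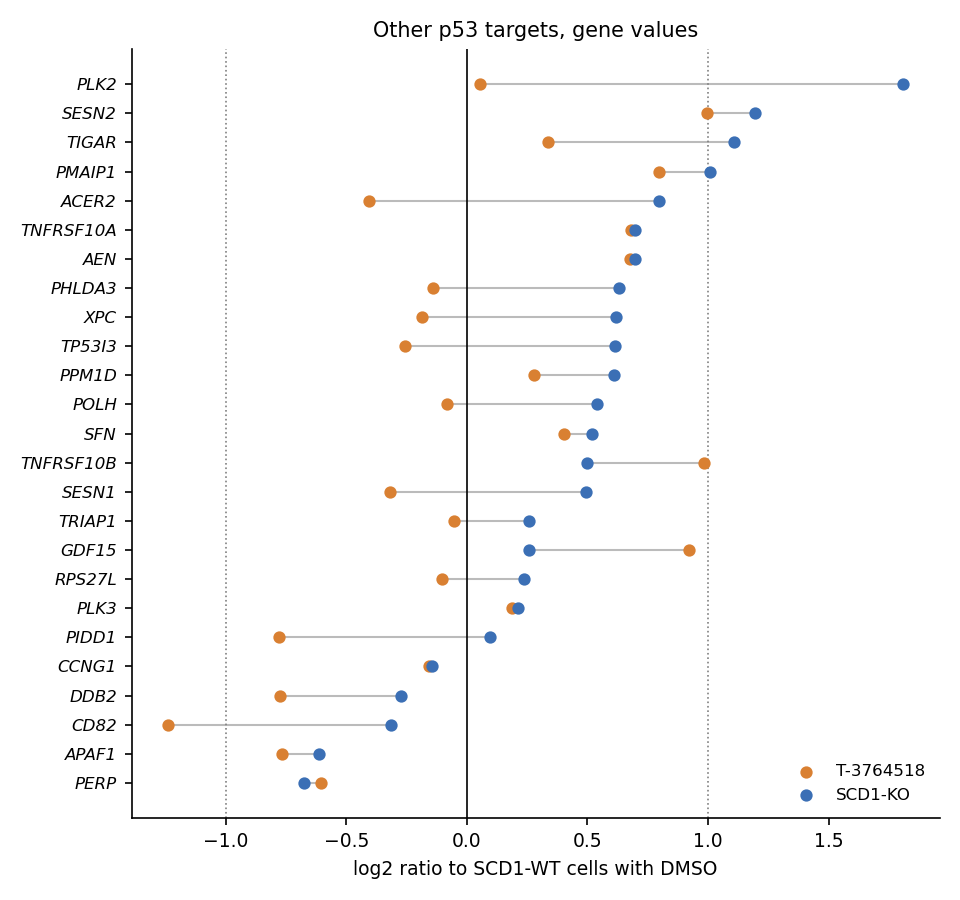
Gene values (log2 ratio to SCD1-WT cells with DMSO, horizontal axis) of the 25 other p53 targets, ordered by the SCD1-KO ratio, with T-3764518 in orange, SCD1-KO cells in blue and dotted lines at 2-fold. The SCD1-KO values lie above 0 for 20 genes and the T-3764518 values for 11, beside 48.9% and 41.0% of all tested genes.

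Genes that act on p53 were mostly near their DMSO level. Of 15 tested regulators, none was called with T-3764518, beside 2.18% of all tested genes called higher and 3.3% lower. In SCD1-KO cells, where 3.12% of all tested genes were called higher and 3.93% lower, 1 regulator was lower. That gene was CHEK1, the checkpoint kinase of stalled replication, with signals of 977, 772.5 and 352 (log2 ratios -0.56 and -1.47, the second between -1.47 and -1.35 over 3 probe sets). With T-3764518, PPP1R13L, which encodes the p53 inhibitor iASPP, was next farthest from 0 at 0.44. MDM4, the partner of MDM2, had log2 ratios of 0.20 and 0.11. The list's medians were 0.17 and -0.073, and both were above 0 after scaling to 1 median.

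Paralogs of the members were compared with them. GADD45B was higher in both states, as GADD45A was, with signals of 829, 2677 and 2136 and log2 ratios of 1.77 and 1.35, although in SCD1-KO cells its 4 probe sets ran from -0.013 to 1.42. BTG1, an antiproliferative protein of the family of BTG2, was higher with T-3764518 (4084 to 9584, log2 ratio 1.22) and at 0.69 in SCD1-KO cells. RRM2, the subunit of ribonucleotide reductase used in S phase, was below its DMSO level in both states (-0.81 and -0.71), unlike its paralog RRM2B. CDKN1B, which encodes p27, was at 0.14 and -0.46. In all, 2 of 10 tested paralogs, GADD45B and BTG1, were called higher with T-3764518, beside 2.18% of all tested genes. GADD45B was the 1 paralog called in SCD1-KO cells, where 3.12% of all tested genes were called higher. After scaling to 1 median these counts were 3 and 2. RRM2, CDKN1B and MDM4 were named after their values were seen.

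Genes of the cell cycle that p21 lowers were measured beside CDKN1A. Of 16 tested, 2 were called lower with T-3764518 and none in SCD1-KO cells, and 2 and 1 of them were above 0, where 41.0% and 48.9% of all tested genes were. The medians were -0.39 and -0.29, and -0.11 and -0.14 after scaling to 1 median. The genes called were E2F1 and MYBL2. E2F1, a transcription factor of S phase entry, had a T-3764518 signal of 21 on 1 of its 2 probe sets and was at least 2.40-fold lower with that signal raised to the filter level, and the brighter probe set alone, at a log2 ratio of -0.96, missed the call. MYBL2, which encodes B-MYB, had a signal that went from 513 to 139.6 with T-3764518 (-1.88) and was 397 in SCD1-KO cells (-0.37). In SCD1-KO cells TTK, a kinase of the spindle checkpoint, was farthest from 0 at -0.75, followed by E2F1 at -0.74. Of 11 cyclins, kinases and other partners of p21, CCNE2, a cyclin of S phase entry, was lower with T-3764518 (1142 to 309, log2 ratio -2.06) and had 882 in SCD1-KO cells (-0.37). It was the 1 partner called with T-3764518, beside 3.3% of all tested genes called lower. No partner was called in SCD1-KO cells (1 was higher after scaling to 1 median), where CCND1, cyclin D1, was at 0.88 and RBL1, a relative of RB1, at -0.67. CCNE2 and MYBL2 were 2-fold higher in SCD1-KO cells than with T-3764518 (log2 ratios 1.69 and 1.51), and E2F1 was at least 1.43-fold higher.

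The cell labels were checked on markers. The keratins KRT8, KRT18 and KRT19 of epithelial cells had signals of 12259 to 29344 on all arrays, by their brightest probe sets. CDX2, also on the list of colon markers, was dim at 59.6, 60.9 and 115.1, and CDH17 had no kept probe set. EPCAM and CDH1, 2 adhesion proteins of epithelium, were lower in SCD1-KO cells (log2 ratios -1.30 and -1.48), EPCAM with signals of 16859, 17224 and 6840. KRT20 was higher there (1.89), at signals of 99.9, 113 and 369.7. These differences moved with the SCD1-KO array, as MDM2, FAS and TP53INP1 did, and their part in the results was not tested. Of 8 markers of blood, endothelial and fibroblast cells, 4 passed the filter, with COL1A1 at signals of 1128, 1409 and 1090 on its brightest probe set. None was called in either state, which cannot show that such markers were absent, since equal levels give no call. All 4 were below 0 in SCD1-KO cells, PECAM1 and CD3E at -0.81 and -0.85. Of 8 tested housekeeping genes none was called, and their median log2 ratios were -0.075 and 0.033. The targeted gene, SCD, had 4 kept probe sets whose log2 ratios ran from 0.72 to 3.10 for T-3764518 and from 0.017 to 1.36 for SCD1-KO; where these probes lie relative to the edit is not stated, so they do not check the knockout.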

How the data were processed

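Total RNA of each culture was labelled with biotin and read on a U133 Plus 2.0 chip from Affymetrix. The deposited table holds 1 linear signal intensity per probe set, 54675 in all, made with MAS5 by the submitters' processing notes (version not given in the sources used here). Arrays, 1 per condition, were grouped by the treatment label. Everything further was computed with Python 3.11.15, numpy 2.4.6, pandas 2.3.3 and statsmodels 0.14.6. The platform annotation gives 1 gene symbol for 41097 probe sets, several for 1801, and lists no entry for 11777; all 29 probe sets of the members were matched by gene ID to RefSeq. The 62 control probe sets were left out. Median log2 ratios per gene were taken over probe sets at or above percentile 50 of mean log2 signal, and calls were made at 2-fold, with no test. The calculation was tested on simulated data with planted changes and less noise than the SD between probe sets. That checks the arithmetic and not the calls. The members and gene lists were chosen with earlier results of these data known. Genes named were the members, the called genes of each list (or the 2 farthest from 0), and the 3 genes nearest to CDKN1A and MDM2. Alternatives were other scalings (quantile, 1 median, lowess), filters, an offset of 16.5, a floor at 56.6, other choices of probe sets and thresholds of 1.5-fold and 3-fold. The number of arrays limits the precision.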

Additional observations from a re-analysis of the deposited data

How the results depend on the processing

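No paired analysis was possible because each condition had 1 array. Of 234 gene values of the members recomputed under the alternatives, 220 moved by less than the SD between probe sets, 14 moved by more, and none of the called values changed sign. In SCD1-KO cells CDKN1A, MDM2, GADD45A, FAS and TP53INP1 stayed above 0 under all alternatives that gave a value. The number of members 2-fold higher in SCD1-KO cells was 2, and it was 4 after scaling to 1 median, 1 with the filter at percentile 75, with the offset, with the brightest probe set or with _s_at and _x_at probe sets left out, and 5 at 1.5-fold and 0 at 3-fold. The number higher with T-3764518 was 1, and it was 2 after scaling to 1 median or at 1.5-fold and 0 at 3-fold. The share of all tested genes called was not computed under the other scalings. The number lower with T-3764518, which is TP73 alone, was 0 without the filter or with the filter at percentile 75. The number higher in SCD1-KO cells than with T-3764518 was 2, and it was 1 without the filter, with the floor or at 3-fold, 3 with the brightest probe set or with _s_at and _x_at probe sets left out, and 4 at 1.5-fold. The median log2 ratio of the members in SCD1-KO cells was 0.84, and it was 0.62 without the filter and 0.64 with _s_at and _x_at probe sets left out. CDKN1A has only an _s_at probe set and so had no value with these left out. TP73 had no value with the filter at percentile 75. The cause of the other moves was not tested. Dim signals limit TP73.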

Other observations

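MIR34A, the host of a p53-induced microRNA, is named alone by 1 kept probe set, chosen after its values were seen. Its signals were 171.2 (DMSO), 152.8 (T-3764518) and 207.5 (SCD1-KO), with log2 ratios to DMSO of -0.16 and 0.28. This is the primary transcript and not the mature microRNA.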
